A study of Mus musculus with 18 samples.

Results

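Expression of 8 enzymes and carriers of mitochondrial fatty acid oxidation was examined in stromal and lymphatic cells of the mouse small intestine. The genes were Cpt1a, Slc25a20, Cpt2, Acadvl, Acadl, Acadm, Hadha and Hadhb. They were chosen by name and not by a rule on their values, although earlier results of these data were known. Each of the 8 stood on a single row among the 23238 distinct gene symbols counted. RNA came from 18 libraries of adult C57BL/6J mice, made with a protocol (QuantSeq) that reads the 3′ end of transcripts. All mice carried the tamoxifen-inducible Cre recombinase CreERT2 under the Pdgfrb promoter and a tdTomato reporter that Cre switches on. Mice called LATS1/2 KO here also carried floxed alleles of Lats1 and Lats2 (Lats1 f/f, Lats2 f/f), kinases that restrain the transcriptional coactivators YAP and TAZ, and mice called WT did not. Intestinal stromal cells (IntSCs) were sorted by tdTomato, with 6 WT and 5 KO libraries. Lymphatic endothelial cells (LECs), which line the lacteals that carry dietary fat from the villi, came from mice of both genotypes, with 4 WT and 3 KO libraries. Since the Pdgfrb promoter drives Cre, the LECs of KO mice were not the cells in which the alleles were targeted.

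Fatty acids enter mitochondria as carnitine esters. CPT1A on the outer membrane makes the ester, the carrier SLC25A20 moves it across the inner membrane, and CPT2 turns it back into acyl-CoA. Acyl-CoA dehydrogenases for very long (ACADVL), long (ACADL) and medium (ACADM) chains then start each round of beta-oxidation. The mitochondrial trifunctional protein, built of the subunits HADHA and HADHB, carries out the remaining steps for long chains. LECs are known to rely on CPT1A-dependent fatty acid oxidation during lymphatic development, where the acetyl-CoA it yields supports histone acetylation at lymphatic genes.

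Hadha and Hadhb lie head to head on chromosome 5 (mouse assembly GRCm38), Hadha at chr5:30119423-30154980 on the minus strand and Hadhb at chr5:30155253-30184593 on the plus strand. In RefSeq (GRCm38.p6), 272 bases separate their starts. Of these, the 85 bases at chr5:30155163-30155247 lie outside every exon of GENCODE vM21. They are shown because Hadha and Hadhb, whose levels are compared below, share them. Stretches before a RefSeq start are also shown for Cpt1a (234 bases, chr19:3323051-3323284, plus strand) and Slc25a20 (202 bases, chr9:108661886-108662087, plus strand). These were the members whose promoter window held the motif GGAAT, which TEAD factors, the DNA-binding partners of YAP and TAZ, recognise. For Cpt1a that start is chr19:3323301, while the gene, with 6 RefSeq transcripts, begins at chr19:3322326. The Cpt1a stretch therefore lies within the annotated gene. Capitals mark matches to GGAAT or AGGTCA on either strand.
Hadha-Hadhb: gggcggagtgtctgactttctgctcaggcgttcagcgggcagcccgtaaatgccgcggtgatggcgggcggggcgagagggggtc
Cpt1a: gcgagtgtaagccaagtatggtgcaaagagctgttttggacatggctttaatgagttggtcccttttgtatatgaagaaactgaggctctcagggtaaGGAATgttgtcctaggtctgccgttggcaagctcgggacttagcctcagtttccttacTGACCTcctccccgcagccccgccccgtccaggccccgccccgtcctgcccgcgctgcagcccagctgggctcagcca
Slc25a20: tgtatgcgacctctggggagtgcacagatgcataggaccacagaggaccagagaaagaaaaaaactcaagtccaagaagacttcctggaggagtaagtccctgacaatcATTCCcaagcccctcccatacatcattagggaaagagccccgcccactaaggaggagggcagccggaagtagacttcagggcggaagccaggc

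The Hadha-Hadhb stretch had a GC content of 69.4% and held none of the motifs searched. All 8 members matched a RefSeq window of 300 bases, from 250 before to 50 after the start. GGAAT was in 2 of these 8 windows and in 38.7% of the 32851 windows of all genes. AGGTCA, a site for nuclear receptors, was in 3 of 8 (Cpt1a, Acadvl and Acadm) against 16.3% of all windows. A direct repeat of AGGTCA with 1 base of any kind between the copies, which PPAR and RXR bind, was in 0 of 8 and in 0.0396% of all windows, and the E-box CACGTG in 0 of 8 and 7.15%. Both strands were searched, and the direct repeat contains AGGTCA. These are matches of letters in a window and say nothing of binding.

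Total counts per library ranged from 5361250 to 10549233, so that 3 reads corresponded to between 0.284 and 0.560 CPM (counts-per-million). Summed LEC markers were at 9304 to 16229 CPM in LECs against 252 to 541 CPM in IntSCs, and summed stromal markers at 8069.7 to 17908 CPM in IntSCs against 340 to 2189 CPM in LECs, the highest LEC value being WT LEC replicate 1. Lats1 was at 12.5 to 21.6 CPM and Lats2 at 78.4 to 133 CPM in KO IntSCs, against 0 to 29.9 CPM and 40.8 to 112 CPM in WT IntSCs. Reads lie at the 3′ end of a transcript, which may remain where a floxed part is lost, so these values do not check the deletion. Nothing in the labels says that each library came from a separate mouse, and p-values then measure the spread between libraries only.

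The 8 genes together took a small and similar part of the RNA in both genotypes. Their summed level was 311 ± 49.0 CPM in WT IntSCs (n = 6, SD), 312 ± 40.1 CPM in KO IntSCs (n = 5, SD), 416 ± 89.1 CPM in WT LECs (n = 4, SD) and 493 ± 102 CPM in KO LECs (n = 3, SD). The summed levels of WT and KO libraries overlapped in both cell types. Between cell types, the sum ranged from 339 to 541 CPM in WT LECs and from 228 to 362 CPM in WT IntSCs, which overlapped, and from 434 to 611 CPM in KO LECs and from 264 to 354 CPM in KO IntSCs, which did not. For every member, groups next to each other in the order of their means overlapped.

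**Figure D1:**
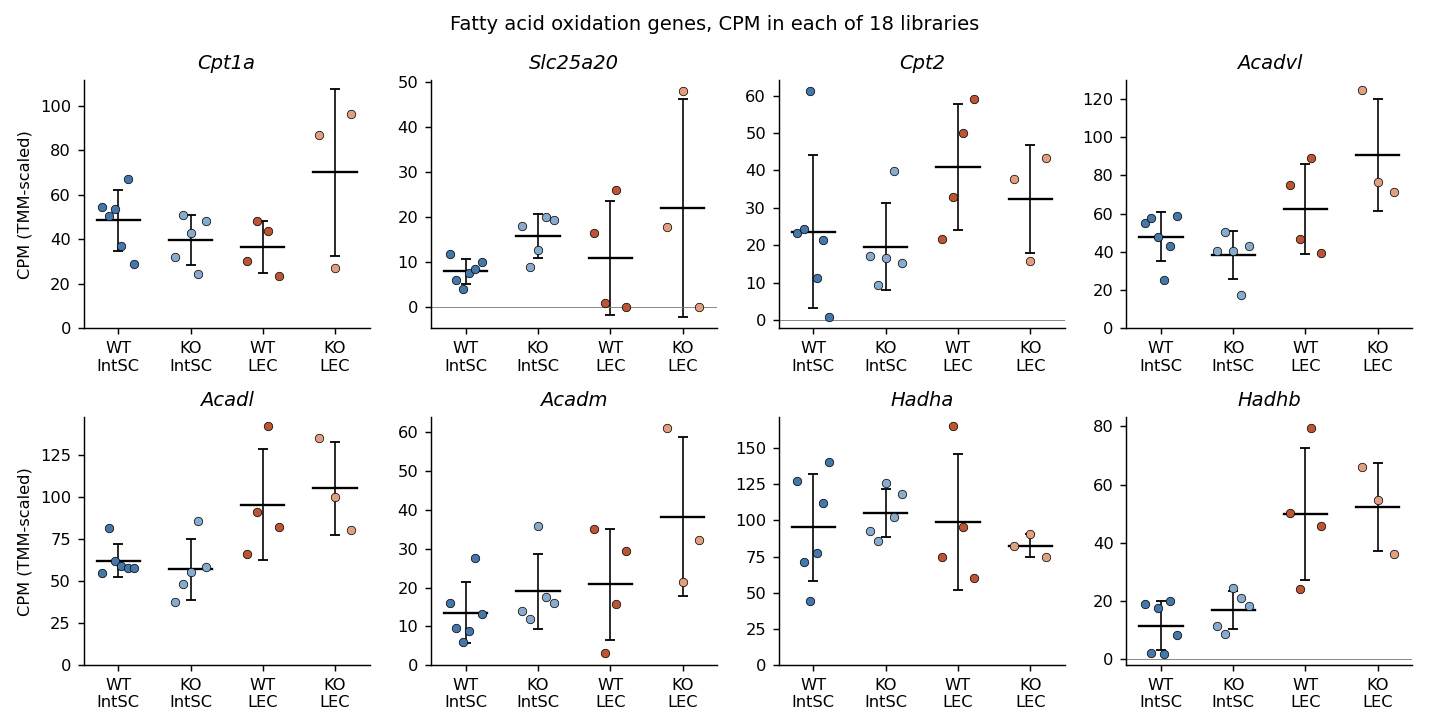
CPM (vertical axes, scaled with TMM factors over all 18 libraries) of the 8 genes in each library. Points are libraries, horizontal lines group means and bars SD. Hadhb is the gene in which all LEC libraries lie above all IntSC libraries of the same genotype in both genotypes (24.1 to 79.4 CPM in WT LECs, at most 20.1 CPM in WT IntSCs). Slc25a20 spreads from 0 to 26.1 CPM within WT LECs.

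The carnitine shuttle was examined first. Cpt1a, which makes the carnitine ester and sets the pace of the pathway, was measured at 28.8 to 67.3 CPM in WT IntSCs with a median of 52.0 CPM. The KO IntSC libraries read 32.1, 50.9, 42.9, 24.4 and 48.2 CPM. Both IntSC groups covered much the same range. In LECs, Cpt1a stood at 30.4, 48.2, 43.8 and 23.4 CPM in WT and at 86.6, 27.2 and 96.0 CPM in KO. Thus 2 of 3 KO LEC libraries lay above every WT LEC library and the other lay within their range. The fitted log2 fold change of KO against WT was 0.95 ± 0.58 (SE) in LECs, with an edgeR adjusted p of 0.846, and -0.29 ± 0.28 in IntSCs, with an edgeR adjusted p of 0.876. The difference between these changes, IntSCs minus LECs, was -1.17 ± 0.59 on the log2 scale, and its edgeR adjusted p was 0.345 (unadjusted 0.0603), the smallest p of the 8 members for the interaction.

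Slc25a20, the carnitine-acylcarnitine carrier, had the lowest CPM of the members in several libraries. WT IntSCs ranged from 4.04 to 11.8 CPM with a median of 8.04 CPM. KO IntSCs read 18.01, 8.86, 12.7, 20.1 and 19.3 CPM, so that 4 of 5 KO libraries lay above every WT library and 1 within the WT range. The log2 fold change of 0.98 ± 0.52 (SE) had an unadjusted p of 0.0741 and an edgeR adjusted p of 0.582. Its 95% interval ran from -0.10 to 2.06. In LECs the gene was either counted well or hardly at all. WT LECs read 16.5, 0.984, 26.1 and 0 CPM, and KO LECs 17.8, 48.0 and 0.130 CPM. The 0 in WT LEC replicate 4 allows up to 0.289 CPM, counting error only, and the KO LEC replicate 3 value was 1 read. The change between LEC genotypes therefore had an interval from -3.0 to 5.03 (log2), and no difference in Slc25a20 was detectable at this depth and spread.

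Cpt2, which releases the acyl-CoA in the matrix, varied widely in WT IntSCs, from 0.828 to 61.2 CPM with a median of 22.4 CPM. The lowest value was 4 reads in replicate 6. KO IntSCs read 17.2, 9.53, 16.7, 39.7 and 15.3 CPM, inside the WT range. WT LECs stood at 21.6, 33.0, 49.9 and 59.1 CPM and KO LECs at 37.6, 16.0 and 43.4 CPM, which also overlapped. The KO against WT log2 fold changes were -0.27 ± 0.61 (SE) in IntSCs and -0.32 ± 0.69 in LECs, with edgeR adjusted p of 0.967 and 1.0. Between cell types, LECs against IntSCs, the 3 shuttle genes did not pass in either genotype. Cpt2 stood at 0.79 ± 0.70 in WT and 0.65 ± 0.63 in KO, Slc25a20 at 0.45 ± 1.2 and 0.40 ± 1.12, and Cpt1a at -0.42 ± 0.36 and 0.75 ± 0.46, all as log2 fold change with SE.

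The acyl-CoA dehydrogenases came next. Acadl, for long chains, was the steadiest of these genes among WT IntSCs, at 54.8 to 81.6 CPM with a median of 58.4 CPM. KO IntSCs read 37.5, 48.3, 55.3, 85.9 and 58.4 CPM. WT LECs read 66.4, 91.0, 142 and 82.0 CPM and KO LECs 135, 100.2 and 80.5 CPM. LEC values were higher on average, but the lowest LEC libraries lay within the range of the IntSCs of their genotype. Between cell types, the log2 fold change of LECs against IntSCs was 0.61 ± 0.28 (SE) in WT, with an unadjusted p of 0.0427 and an edgeR adjusted p of 0.137. It was 0.82 ± 0.33 in KO, with an unadjusted p of 0.0312 and an edgeR adjusted p of 0.0940.

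Acadvl, for very long chains, was measured at 25.2 to 58.8 CPM in WT IntSCs, with a median of 51.4 CPM, and at 40.3, 50.2, 40.4, 17.4 and 43.1 CPM in KO IntSCs. WT LECs read 74.8, 46.6, 88.8 and 39.2 CPM and KO LECs 124, 76.4 and 71.0 CPM. All 3 KO LEC libraries lay above all 5 KO IntSC libraries, while the WT groups overlapped. The log2 fold change of LECs against IntSCs was 1.17 ± 0.40 (SE) in KO, with an edgeR adjusted p of 0.0517, just short of the threshold of 0.05, and 0.37 ± 0.35 in WT, with an edgeR adjusted p of 0.521. With DESeq2, limma-voom and a fit of all 4 groups the KO value passed, with adjusted p of 0.0276, 0.0352 and 0.0358. In KO, DESeq2 and limma-voom called 4268 and 4335 of 12758 genes, against 3302 with edgeR. The KO value of Acadvl did not pass with RLE factors, upper-quartile factors or no filter beyond 1 read. It passed in 1 of the 8 fits that left a library out, and the edgeR adjusted p reached 0.168. The 3′ end of Acadvl lies within Dvl2, a gene on the opposite strand that overlaps it by 2119 bases in GENCODE vM21. The sources used here do not say whether counting used strand, and without strand reads of the pair cannot be told apart. Dvl2 ran from 97.8 to 178 CPM in IntSCs and from 14.1 to 59.2 CPM in LECs, the opposite order of Acadvl.

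Acadm, for medium chains, read 5.93 to 27.7 CPM in WT IntSCs with a median of 11.4 CPM, and 14.0, 11.9, 35.8, 17.5 and 16.1 CPM in KO IntSCs. WT LECs read 35.1, 3.20, 15.8 and 29.3 CPM and KO LECs 61.0, 21.5 and 32.3 CPM. The 4 groups overlapped throughout. The log2 fold changes ranged from 0.49 ± 0.48 (SE) for the KO IntSCs against WT to 0.94 ± 0.59 for the KO LECs against KO IntSCs, and none passed the test.

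The clearest difference among the 8 genes was in the RNA of Hadhb, a subunit of the trifunctional protein, and not in that of Hadha. Hadha, the subunit with the hydratase and dehydrogenase activities, was at 44.2 to 139.9 CPM in WT IntSCs with a median of 94.6 CPM, and at 92.9, 85.8, 126, 103 and 118 CPM in KO IntSCs. WT LECs read 74.7, 165, 95.4 and 59.9 CPM and KO LECs 82.2, 90.8 and 74.7 CPM. All 4 groups overlapped for Hadha. Its log2 fold change of LECs against IntSCs was 0.04 ± 0.36 (SE) in WT, with an interval from -0.72 to 0.80, and -0.42 ± 0.25 in KO, with an interval from -0.97 to 0.13. The WT value changed sign, to -0.02 and -0.07, with RLE and upper-quartile factors. The 3′ end of Hadha overlaps Garem2 on the opposite strand by 75 bases, and the row of that gene, listed under its older symbol Gareml, held at most 17 reads in any library and 0 in all LEC libraries.

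Hadhb, the subunit with the thiolase activity, was at 1.84 to 20.1 CPM in WT IntSCs with a median of 13.0 CPM, and at 11.6, 8.86, 24.6, 21.2 and 18.3 CPM in KO IntSCs. WT LECs read 50.3, 24.1, 79.4 and 45.9 CPM and KO LECs 66.1, 54.6 and 36.2 CPM. Every LEC library lay above every IntSC library of its genotype. The log2 fold change of LECs against IntSCs was 2.10 ± 0.66 (SE, 95% interval 0.71 to 3.50) in WT, with an edgeR adjusted p of 0.0299. It was 1.56 ± 0.51 (0.42 to 2.69) in KO, with an edgeR adjusted p of 0.0471. The WT call was lost without WT IntSC replicate 6, WT LEC replicate 1 or WT LEC replicate 3, with an adjusted p of up to 0.103. In KO the adjusted p passed in 1 of the 8 fits that left a library out, the one without KO LEC replicate 3, and reached 0.104 without KO LEC replicate 1. The KO call was also lost with RLE factors, upper-quartile factors, no filter beyond 1 read and all 4 groups in one fit, at edgeR adjusted p of 0.0506, 0.0556, 0.0790 and 0.0983. Between genotypes Hadhb changed by 0.54 ± 0.60 in IntSCs and by 0.08 ± 0.56 in LECs, neither past the test.

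**Figure D2:**
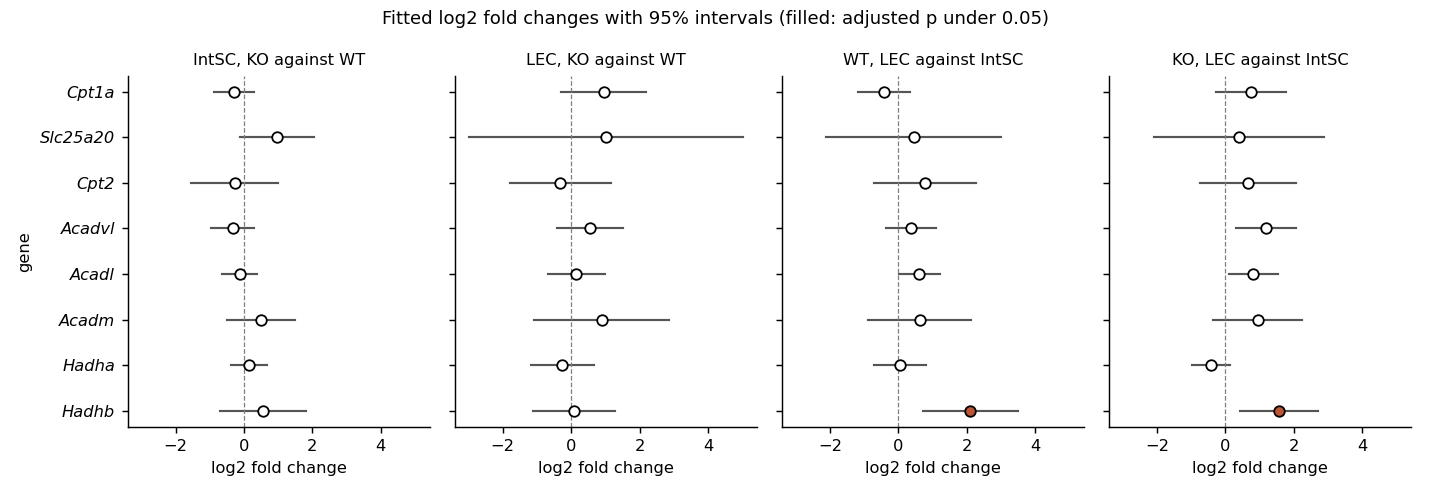
Fitted log2 fold changes (horizontal axes) of the 8 genes in 4 comparisons, KO against WT within IntSCs and within LECs, and LECs against IntSCs within WT and within KO. Points are edgeR estimates, lines 95% intervals, and filled points have an adjusted p under 0.05. Hadhb between cell types is filled in both genotypes (2.10 and 1.56), and no gene is filled between genotypes.

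The ratio of both subunits in the same library was taken after their values had been seen. A 3′ read count per gene also depends on priming, so the ratio is compared between groups and is no estimate of subunit numbers. Hadhb per Hadha was 0.141 ± 0.143 in WT IntSCs (n = 6, SD), 0.157 ± 0.0442 in KO IntSCs (n = 5, SD), 0.604 ± 0.313 in WT LECs (n = 4, SD) and 0.630 ± 0.162 in KO LECs (n = 3, SD). In WT LECs, 3 libraries ran from 0.673 to 0.832 and replicate 2 was at 0.146, inside the WT IntSC range, which reached 0.402 in replicate 3. The KO LEC ratios, 0.804, 0.602 and 0.484, all lay above the KO IntSC maximum of 0.206. The mean log2 ratio was 2.48 higher in LECs than in IntSCs in WT and 2.02 higher in KO, and between genotypes it differed by 0.77 in IntSCs and by 0.30 in LECs. Since the ratio was picked for its pattern, these are descriptions without a test.

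**Figure D3:**
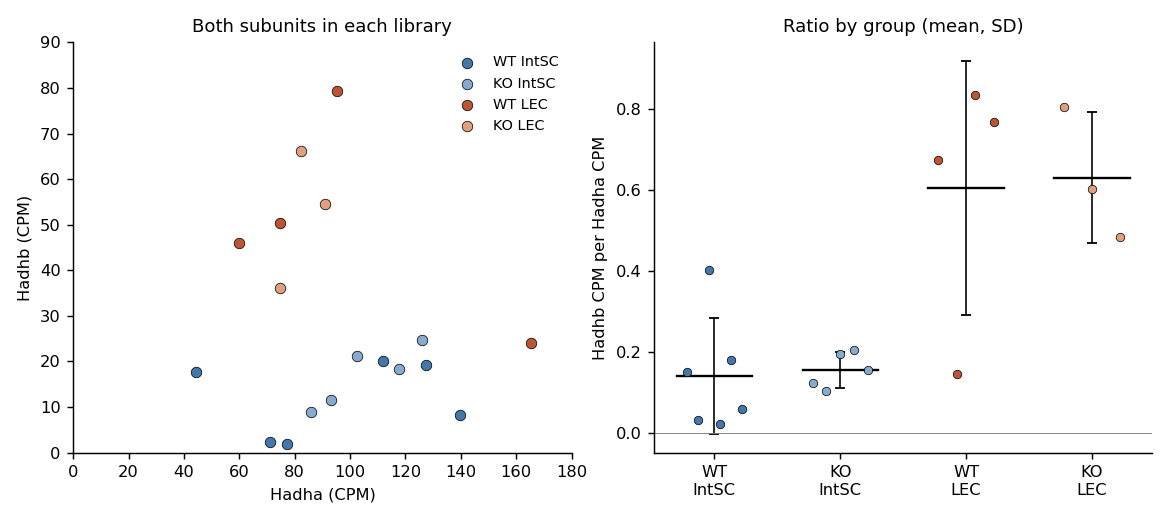
Left, Hadhb against Hadha (both in CPM) in each of the 18 libraries. Right, the CPM of Hadhb divided by that of Hadha by group, with points for libraries, lines for means and bars for SD. The LEC libraries lie at 0.484 to 0.832 except WT LEC replicate 2 at 0.146, and the IntSC libraries at 0.0238 to 0.402.

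Counted over the members, 0 of 8 changed with genotype in IntSCs, where 1.47% of the 12421 genes tested passed edgeR's test at an adjusted p under 0.05, and 0 of 8 in LECs, where 0.0658% of 10639 genes passed. At an unadjusted p under 0.05 the count was also 0 in both, against 1219 of 12421 genes in IntSCs and 837 of 10639 in LECs. DESeq2 and limma-voom called 0 as well, against 376 and 224 of all 12421 genes in IntSCs and 309 and 12 of 10639 in LECs. Between cell types, 1 of 8 members was called in WT (22.6% of all 12203 genes tested, 10.3% as higher in LECs) and 1 of 8 in KO (25.9% of 12758 genes, 9.11% as higher), the gene being Hadhb each time. Thus 1 of 8 was below the share of all genes called in both directions together, and close to the share called as higher. Hadhb was the member without overlap between LECs and IntSCs in WT (9.76% of all genes were without overlap and higher, 11.4% lower), and Acadvl and Hadhb in KO (12.1% higher, 20.1% lower). Between genotypes 0 of 8 were without overlap in IntSCs, where 1.63% of all genes were so and higher in KO and 1.18% lower, and 0 of 8 in LECs (4.01% higher, 5.80% lower). For the interaction between cell type and genotype 0 of 8 were called, against 1.70% of 14015 genes. At an unadjusted p under 0.05 it was also 0 of 8, against 2217 of 14015 genes.

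The median log2 fold change of the members was 0.00 in IntSCs (0.00 over all genes tested) and 0.35 in LECs (-0.03 over all genes) for KO against WT. For LECs against IntSCs it was 0.53 in WT (-0.04 over all genes) and 0.78 in KO (-0.21 over all genes). Each time 7 of 8 members were above 0, against 5955 of 12203 genes in WT and 5656 of 12758 genes in KO. Of those members, Slc25a20 (in both) and Hadha (in WT) turned below 0 under other settings. The member below 0 was Cpt1a in WT and Hadha in KO. The cell type comparisons share their libraries with the genotype comparisons, so these medians are not independent. In simulated data with these library sizes and spreads, a log2 change of 1 in genes above 20 CPM was recovered for 21.5% of genes in IntSCs and 0% in LECs, and a log2 change of 2 for 91.5% and 27.0%. A log2 change of 1 in a single member would therefore usually not have been detectable here.

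Markers of other cells were summed in the same libraries. Enterocyte markers ran from 0.678 to 47.2 CPM in WT IntSCs and from 14.5 to 63.3 CPM in KO IntSCs. They read 86.6, 197, 449.5 and 57.2 CPM in WT LECs, with Alpi and Krt20 at 0 in all 4, and 32.6, 28.1 and 75.1 CPM in KO LECs, with Vil1, Apoa4, Alpi and Krt20 at 0 in all 3. Of the 8 enterocyte markers, 5 had a higher mean in LECs in WT and 3 in KO. WT LEC replicate 3 had both the highest enterocyte sum and the highest Hadhb, Acadl and Acadvl values of WT LECs, and the part of these cells in the result was not tested. Leukocyte markers summed to 52.0 to 145 CPM in WT LECs against 9.53 to 25.1 CPM in WT IntSCs, without overlap, with 1 of 8 higher on average in LECs and Cd3e and Cd79a at 0 in all 4 LEC libraries. In KO they summed to 14.9 to 57.1 CPM in LECs and 11.6 to 22.7 CPM in IntSCs, which overlapped, again with 1 of 8 higher in LECs. The part of leukocytes in the difference in Hadhb was not tested. Adipocyte markers summed to at most 6.20 CPM in any library. Paneth and goblet markers summed to 42.6 to 120 CPM in KO LECs against 0.0994 to 32.1 CPM in WT LECs, without overlap. Of these 7 markers, 5 had a higher mean in KO LECs. In IntSCs they summed to 47.6 to 97.4 CPM in KO and 0.909 to 66.4 CPM in WT, which overlapped, with 7 of 7 higher in KO. The part of these cells in the genotype comparisons was not tested. In such bulk samples fewer cells of a type and less RNA per cell cannot be told apart.

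The other 50 genes of the pathway were grouped by role. For KO against WT, 0 of the 47 tested in IntSCs and 0 of the 44 tested in LECs passed the test, where 1.47% and 0.0658% of all genes did. DESeq2 and limma-voom also called 0 of them. At an unadjusted p under 0.05 there were 2 and 0, against 1219 of 12421 and 837 of 10639 genes. Between cell types, 5 of 46 tested were higher and 2 lower in WT LECs, and 6 of 48 were higher and 1 lower in KO LECs. The background shares were 10.3% higher and 12.3% lower in WT and 9.11% higher and 16.8% lower in KO. They are also the shares to set beside the counts of each list below.

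Among the genes that activate fatty acids, 1 of 4 tested was higher in LECs, in WT and in KO. It was Acsl5, an acyl-CoA synthetase, at 69.5 to 203 CPM in WT LECs and 58.6 to 198 CPM in KO LECs against 21.7 to 63.3 CPM and 18.7 to 42.5 CPM in IntSCs. Its log2 fold change was 1.66 ± 0.39 (SE) in WT, with an edgeR adjusted p of 0.00554, and 1.66 ± 0.45 in KO, with an edgeR adjusted p of 0.0210 that rose to 0.140 without KO LEC replicate 2. Of the other carnitine genes, the electron transfer genes, the genes of the malonyl-CoA axis and the transcriptional regulators, none passed in WT, and Etfb alone passed in KO.

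Of the 12 other enzymes of mitochondrial beta-oxidation, 2 were lower in WT LECs. Acads, the dehydrogenase for short chains, read 18.6, 30.6, 24.7 and 0.795 CPM in WT LECs against 41.5 to 107 CPM in WT IntSCs, a log2 fold change of -1.89 ± 0.66 (SE) with an edgeR adjusted p of 0.0496. This call held in 2 of the 10 fits that left a library out, those without WT LEC replicates 2 or 4. In KO the change of Acads was -1.61 ± 0.64, with an edgeR adjusted p of 0.0917, not past the threshold. Decr1, the dienoyl-CoA reductase that handles unsaturated fatty acids, read 6.18, 8.49, 4.11 and 7.06 CPM in WT LECs against 12.5 to 49.0 CPM in WT IntSCs, a change of -2.14 ± 0.61 with an edgeR adjusted p of 0.0198. Without WT IntSC replicates 1 or 6 the adjusted p rose to at most 0.0680. With limma-voom the WT call of Decr1 was also lost, at an adjusted p of 0.0555. In KO LECs Decr1 was down to 2, 12 and 1 reads, and the log2 fold change against KO IntSCs was -5.89 ± 1.03 with an edgeR adjusted p of 0.00240.

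Hadh and Echs1, which were named after their values were seen, were higher in KO LECs. Hadh, the dehydrogenase for short and medium chains, ran from 209 to 296 CPM in KO LECs and from 42.6 to 82.1 CPM in KO IntSCs, a log2 fold change of 1.97 ± 0.27 (SE) with an edgeR adjusted p of 0.000482. Echs1, the short-chain hydratase, stood at 81.8 to 84.8 CPM and at 13.4 to 31.1 CPM, a change of 1.72 ± 0.38 with an edgeR adjusted p of 0.00851. In WT the values were 0.97 ± 0.35 for Hadh and 0.80 ± 0.42 for Echs1, with edgeR adjusted p of 0.0627 and 0.208. Hadh in WT passed without WT IntSC replicate 2 or WT LEC replicate 2. It also passed with limma-voom (adjusted p 0.0206) and all 4 groups in one fit (edgeR adjusted p 0.0344), not with DESeq2 (adjusted p 0.0866). In WT, limma-voom called 3640 of 12203 genes and the fit of all 4 groups 2939 of 14015, against 2763 of 12203 in the main fit. The interaction, IntSCs minus LECs, was not past the threshold for either gene, with an edgeR adjusted p of 0.305 for Hadh and 0.526 for Echs1.

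In peroxisomes, where very long chains are shortened, 2 of 9 genes tested were higher in WT LECs. Hsd17b4, the bifunctional enzyme, ran from 33.1 to 129 CPM against 4.98 to 44.1 CPM in WT IntSCs. Its log2 fold change of 1.78 ± 0.51 (SE) had an edgeR adjusted p of 0.0189, or 0.0862 without WT LEC replicate 4. With all 4 groups in one fit the WT call of Hsd17b4 was lost, at an edgeR adjusted p of 0.0616. In KO LECs it read 50.1, 84.5 and 1.04 CPM and did not pass, with an edgeR adjusted p of 0.455 that fell to 0.0326 without replicate 3, the library at 1.04 CPM. The other, Acaa1b, is nearly identical to Acaa1a, and the split of reads between this pair of thiolases is uncertain. Its log2 fold change in WT was 1.71 ± 0.51, with an edgeR adjusted p of 0.0234, or up to 0.0844 without WT LEC replicates 2 or 3. In KO the change of Acaa1b was 0.38 ± 0.70, with an edgeR adjusted p of 0.769. Of the 9 peroxisomal genes tested in KO, 0 were called.

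Of the genes responsive to PPAR, nuclear receptors that sense fatty acids, 2 of 3 tested were higher in WT LECs and 2 of 4 in KO LECs. Ucp2, a mitochondrial carrier of the uncoupling protein family, was at 146 to 259.5 CPM in WT LECs and 112 to 310.45 CPM in KO LECs against 12.2 to 26.5 CPM and 5.28 to 11.9 CPM in IntSCs. Its log2 fold changes were 3.48 ± 0.29 (SE) in WT and 4.29 ± 0.42 in KO, with edgeR adjusted p of 3.76e-07 and 5.63e-05. Plin2, a coat protein of lipid droplets, was also higher, by 1.08 ± 0.32 in WT and 1.55 ± 0.47 in KO, with edgeR adjusted p of 0.0235 and 0.0354. Its WT call was lost without WT IntSC replicate 5 or WT LEC replicate 3, and its KO call held in 3 of the 8 fits that left a library out, those without KO IntSC replicates 1 or 4 or KO LEC replicate 3.

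**Figure D4:**
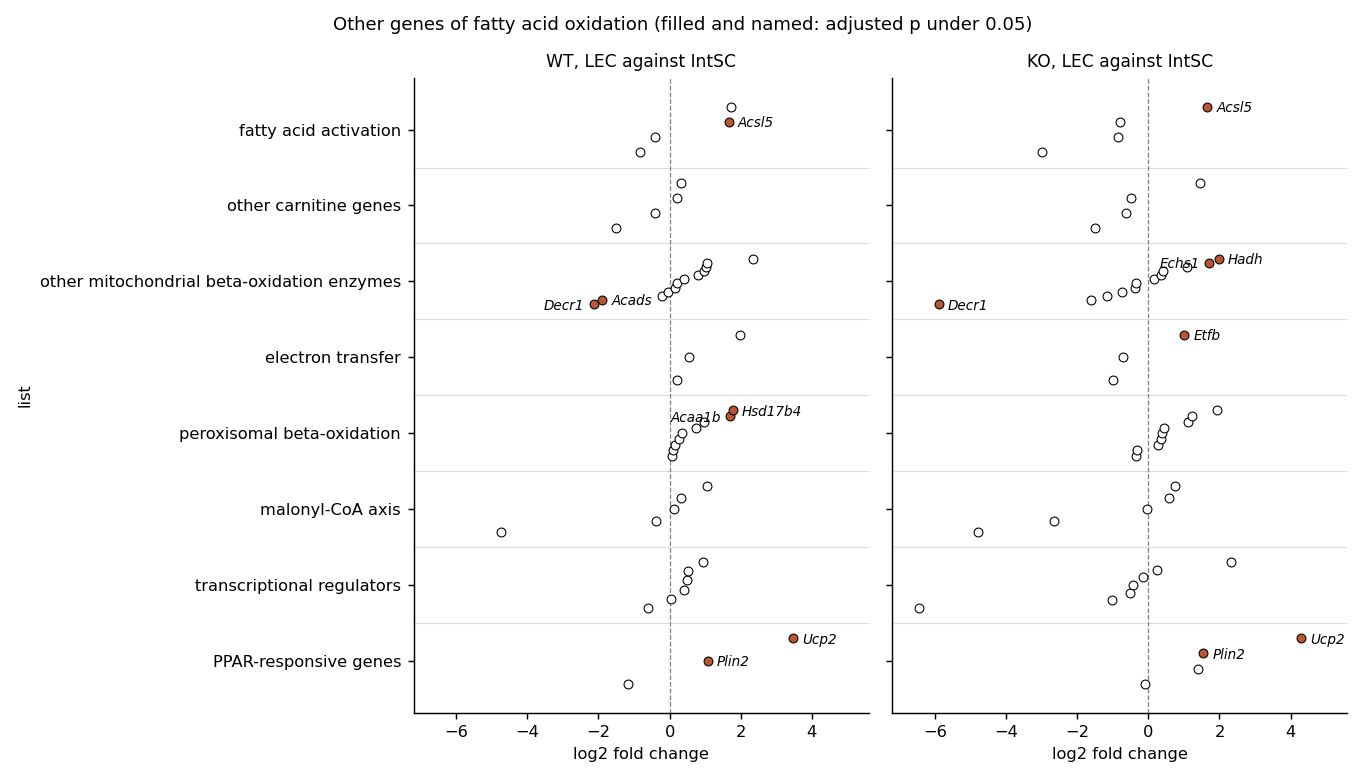
Log2 fold change (horizontal axes) of LECs against IntSCs in WT (left) and KO (right) for the other genes of fatty acid oxidation, by list. Each point is a gene tested, and those with an adjusted p under 0.05 are filled and named. Ucp2 lies farthest to the right in both panels (3.48 and 4.29), and Decr1 is filled to the left of 0 in both.

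Of the 44 other pathway genes tested between LEC genotypes, 4 were without overlap and higher in KO and 1 lower, where the shares of all genes given above were 4.01% and 5.80%. The 4 were Echs1 (81.8 to 84.8 CPM in KO LECs against 33.9 to 66.0 CPM in WT LECs), Etfb (159 to 218 against 141 to 153 CPM), Eci2 (30.5 to 82.4 against 17.6 to 24.8 CPM) and Angptl4 (59.5 to 70.6 against 0.190 to 33.2 CPM), named after their values were seen. None of these passed the test, with edgeR adjusted p of 0.688, 0.971, 0.783 and 0.747. The lower gene was Decr1, which was lower in LECs than in IntSCs. Stromal markers moved the same way between LEC genotypes, at 340 to 605 CPM in KO LECs against 659 to 2189 CPM in WT LECs, with 0 of 9 markers higher on average in KO, and the part of stromal cells in the values of Decr1 was not tested. Its log2 fold change of KO against WT was -3.45 ± 2.20 (SE), with an edgeR adjusted p of 0.875 in the fit of the LEC libraries alone. With all 4 groups in a single fit, which takes its spread from the IntSCs too, the same change was -3.50 ± 0.89 with an edgeR adjusted p of 0.0275. That fit called 538 of 14015 genes, against 7 of 10639 in the fit of the LEC libraries alone. The interaction for Decr1, IntSCs minus LECs, was 3.74 ± 1.04, with an edgeR adjusted p of 0.0642, and with DESeq2 it passed, at an adjusted p of 0.00148. For the interaction DESeq2 called 1023 of 14015 genes, against 238 with edgeR. The interaction for Decr1 also passed without KO LEC replicate 2, where 461 of 14711 genes were called.

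The members did not vary together to a marked degree. Over the 18 libraries, the Pearson correlation of log2(CPM + 1) between 2 members had a median of 0.129 over the 28 pairs, ranging from -0.464 to 0.564, and after each group's mean was subtracted the median was 0.0953. The median correlation of a member with the 6693 other genes above 20 CPM was -0.0115 and -0.00239. These points share library and depth, and are given as a description. The genes most like Hadhb over the 18 libraries were Stx3 (r = 0.917), Fli1 (r = 0.893) and Hyal2 (r = 0.888), and those most like Acadl were Rap1gds1 (r = 0.863), Reep3 (r = 0.857) and Cdc42 (r = 0.843). For Acadvl they were Tmem134 (r = 0.892), Pgm1 (r = 0.857) and Eif3h (r = 0.856), and for Acadm Mpzl1 (r = 0.831), Zwint (r = 0.814) and H3f3b (r = 0.811). Cpt1a was most like Hmgcs1 (r = 0.739), 6820431F20Rik (r = 0.727) and Dcaf10 (r = 0.721), Cpt2 most like Dnajb5 (r = 0.806), Rpl21 (r = 0.790) and Capzb (r = 0.783), and Hadha most like Taf8 (r = 0.760), Ube2d2a (r = 0.756) and Zc3h15 (r = 0.706). For Slc25a20 they were Xylt2 (r = 0.866), Rab2b (r = 0.862) and Msl3 (r = 0.787). With Spearman's correlation, between 0 and 2 of the 3 genes per member were the same.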

How the data were processed

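Libraries were assigned to groups by their titles. For each library the authors deposited raw, whole-number read counts of 23282 rows and 23238 distinct gene symbols, where rows of a repeated symbol were summed here. The submitters' processing notes name Bowtie2, edgeR and the build mm10 (the assembly GRCm38), and the study's methods name TopHat and Cufflinks for RNA sequencing. The counting program and annotation are not given in the sources used here. All 8 genes passed the filter on low counts in every comparison.

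The test was that of edgeR 4.0.16, run in R 4.3.3 (filterByExpr, TMM factors, robust quasi-likelihood fit, Benjamini-Hochberg adjustment over all genes tested, threshold 0.05), with the groups compared in each fit and all 4 groups for the interaction. Standard errors and 95% intervals were derived from the F statistic and its degrees of freedom. CPM values use TMM factors over all 18 libraries, and levels entered correlations as log2(CPM + 1). Simulated counts holding 200 changed genes were used to check the procedure. Floors are 3 counts and cover counting error only. Motifs were searched in RefSeq windows, and overlaps with other genes in GENCODE vM21. Named outside the 8 genes were, per list, up to 3 genes called in WT LECs against WT IntSCs with a mean of at least 5 CPM, any gene called between genotypes, and the 3 genes most like each member. Exceptions are marked. Python 3.11.15 was used for tables.

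The genes and lists were chosen with earlier results of these data known. Alternatives were DESeq2 1.42.0, limma-voom (limma 3.58.1), RLE and upper-quartile factors, other filters, leaving out the ribosomal RNA precursor Rn45s (7.02% to 24.4% of counts), all 4 groups in one fit, the replicate number as a block, and each library left out. A gene of the pathway lists is not reported here and left out of their counts.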

Additional observations from a re-analysis of the deposited data

Results flagged for a closer look

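In 3 of the 24 sets of 4 to 6 libraries examined, a library stood apart from its group by Dixon's criterion, where chance gives about 1.2. KO IntSC replicate 4 had the highest Cpt2 of KO IntSCs (39.7 CPM, the next at 17.2 CPM), a gap of 0.745 of the range of that group. WT IntSC replicate 2 had the highest Acadl of WT IntSCs (81.6 CPM, the next at 61.8 CPM), a gap of 0.738 of the range. KO IntSC replicate 3 had the highest Acadm of KO IntSCs (35.8 CPM, the next at 17.5 CPM), a gap of 0.767 of the range.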

How the results depend on the processing

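Among the 784 alternative values of the 40 log2 fold changes of the 8 genes, 718 kept their direction and their side of the threshold, 46 changed sign, 15 lost a call and 5 gained one. The genotype comparisons and the interaction called 0 of the 8 genes under every alternative run. In WT, LECs against IntSCs, Hadhb was called under every alternative but 3 left-out libraries (0 to 1 members called). In KO, DESeq2 and limma-voom called 2 members, and RLE factors, upper-quartile factors, no filter beyond 1 read and the replicate block called 0, with 0 to 2 when a library was left out. Of all 12758 genes, DESeq2 called 4268, limma-voom 4335 and edgeR's test 3302. Without KO IntSC replicate 4 the member called was Acadl (adjusted p 0.0449) and not Hadhb (adjusted p 0.0546). The summed CPM stayed within 1 SD without TMM factors.

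Of the other pathway genes, 1 was called in LECs, KO against WT, with all 4 groups in one fit, which called 538 of all 14015 genes. For WT LECs against IntSCs, where 7 were called, the left-out fits gave 4 (without WT LEC replicate 3) to 8. For KO, where 7 were called, DESeq2 called 11, and 4268 of all 12758 genes. For the interaction, DESeq2 called 1 and the left-out fits 0 to 4, the 4 without KO LEC replicate 2. Over all genes, DESeq2 called 1023 of 14015 and the fit without KO LEC replicate 2 called 461 of 14711. Hsd17b4 in KO turned to -0.090 with limma-voom.

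The replicate number as a block called 2 other pathway genes in WT and 2 in KO, each against 7 without it, and moved Hadhb in KO to an adjusted p of 0.276 and in WT to 0.0410. No source says that a number marks a shared mouse or day. The mean correlation of deviations from group means between libraries of the same number was -0.00394 to 0.0360 over the 4 comparisons, with no pair above 0.1. As a hint from the data, 7 of 8 libraries correlated best with their own number in WT, LECs against IntSCs, 3 of 10 in IntSCs, 2 of 6 in LECs and 2 of 6 in KO. Over all genes, the block called 122 in IntSCs, 3 in LECs, 1596 in WT, 895 in KO and 16 for the interaction, against 183, 7, 2763, 3302 and 238.

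Over all alternatives run, all-gene calls ranged from 27 to 376 in IntSCs, 0 to 538 in LECs, 1596 to 3640 in WT, 895 to 4335 in KO and 16 to 1023 for the interaction. Signs turned for small or noisy log2 fold changes, and the cause was not tested. Slc25a20 in WT moved to -1.75 (limma-voom) and -1.20 (block), and in KO to -1.45 and -0.58. Its interaction moved to -0.082 (DESeq2 and RLE), -0.32 (limma-voom), -0.037 (upper-quartile), -0.027 (no filter), -0.047 (without Rn45s) and -0.60 (block), and that of Cpt2 to -0.46 (block). Hadha in WT moved to -0.021 (DESeq2 and RLE) and -0.067 (upper-quartile). With a library left out, the ranges that crossed 0 were, for KO against WT in IntSCs, -0.69 to 0.27 for Cpt2 and -0.011 to 0.29 for Hadha. In LECs they were -0.59 to 0.012 for Cpt2, -0.26 to 1.89 for Slc25a20, -0.065 to 0.39 for Acadl, -0.44 to 0.12 for Hadha and -0.15 to 0.38 for Hadhb. For LECs against IntSCs they were -0.46 to 0.86 for Slc25a20 and -0.35 to 0.22 for Hadha in WT, and -0.86 to 0.98 for Slc25a20 in KO. For the interaction they were -0.29 to 0.66 for Cpt2, -0.87 to 1.29 for Slc25a20, -0.47 to 0.027 for Acadl and -0.71 to 0.20 for Acadm.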

Other observations

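In IntSCs, 2 of the other 47 pathway genes tested had an unadjusted p under 0.05 for KO against WT, against 1219 of all 12421 genes. Neither of the 2 passed after adjustment. Ucp2 was at 12.2 to 26.5 CPM in WT IntSCs and at 5.28 to 11.9 CPM in KO IntSCs, without overlap (1.18% of all genes tested were without overlap and lower), and changed by -1.03 ± 0.47 (SE) on the log2 scale (edgeR adjusted p = 0.463). Angptl4, a secreted inhibitor of lipoprotein lipase named here after its values were seen, had a log2 fold change of 0.78.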
